A study of Mus musculus with 6 samples.

Results

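The apolipoprotein L genes examined here were Apol6, Apol7c, Apol8, Apol9a, Apol9b and Apol10b, 6 genes chosen by symbol from the 36706 entries of the deposited tables. The tables list 8 further entries of this name, 7 numbered Apol genes and the related Apold1, and these are described for comparison. Expression was measured by RNA sequencing in macrophages grown from the bone marrow of wild-type (WT) mice. All 6 libraries came from cells cultured with the growth factor M-CSF at 20 ng/mL. The 3 libraries of one group were left untreated, and the 3 of the other were exposed for 3 h to IFN-γ (interferon-gamma), the T and NK cell cytokine that drives classical macrophage activation. The labels give no dose of IFN-γ and no strain, sex or age of the mice.

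Apolipoprotein L proteins carry amphipathic helices that bind and disturb lipid membranes. The best known relative, human APOL1, circulates on high-density lipoprotein and kills trypanosomes, whereas most other members act inside cells. Human APOL3 is induced by interferon and breaks the membranes of cytosolic bacteria together with guanylate-binding proteins. Mice have no direct counterpart of human APOL1, and their family grew by local gene duplication. Mouse APOL7C has been described in dendritic cells, where it ruptures phagosomes. APOL9A and APOL9B are close copies of each other, known as interferon-induced antiviral proteins that bind prohibitin and phospholipids.

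Promoter sequences are shown first because the family members differ in a short interferon motif near the start. They come from the RefSeq promoter table of build GRCm38.p6, which held 5 of the 6 members. Each stretch runs 5′ to 3′ on the gene's strand, from -100 to 10 around the annotated start, the first where 2 are listed. Capitals mark matches to the core motif of the interferon-stimulated response element (ISRE). This motif is GAAA, any 2 bases and GAAA again; all matches lie on the opposite strand, so in the printed strand each reads TTTC, 2 bases, TTTC. It is bound by factors of the IRF family. The first 4 stretches belong to the members with clear counts after IFN-γ, at chr15:77533306-77533415 (minus strand), chr15:77728972-77729081 (plus), chr15:77411071-77411180 (minus) and chr15:77596116-77596225 (minus).
Apol7c: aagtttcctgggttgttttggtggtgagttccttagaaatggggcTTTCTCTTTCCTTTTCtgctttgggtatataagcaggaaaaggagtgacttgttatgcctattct
Apol9b: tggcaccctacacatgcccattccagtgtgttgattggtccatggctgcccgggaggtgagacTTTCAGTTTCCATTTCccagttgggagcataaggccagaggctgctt
Apol9a: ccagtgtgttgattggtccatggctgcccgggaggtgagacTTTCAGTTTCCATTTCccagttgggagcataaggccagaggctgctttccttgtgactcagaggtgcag
Apol10b: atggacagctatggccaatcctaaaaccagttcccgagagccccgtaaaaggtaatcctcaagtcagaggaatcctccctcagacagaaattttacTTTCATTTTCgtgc

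The other 2 are shown for contrast, at chr15:77698789-77698898 (plus) and chr15:77757001-77757110 (minus). Apol7e holds an overlapping pair of matches as Apol7c does, nearer the start and with other letters in the second match, but had almost no counts, and Apol8 is a member whose window holds no match.
Apol7e: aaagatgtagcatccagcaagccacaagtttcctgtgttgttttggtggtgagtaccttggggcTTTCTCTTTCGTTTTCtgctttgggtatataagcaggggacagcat
Apol8: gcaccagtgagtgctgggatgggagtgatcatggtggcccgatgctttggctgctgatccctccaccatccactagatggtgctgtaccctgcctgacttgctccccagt

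The libraries held 28133342 to 34233607 counts, and 3 counts in 1 library, the most that a count of 0 allows, stood for 0.089 to 0.101 CPM. CPM are counts relative to the library total after TMM scaling. The macrophage label was checked against 8 markers, which summed to 19600 to 21200 CPM untreated and 20800 to 22100 CPM with IFN-γ. Lyz2 gave most of this (15500 and 15200 CPM), and Adgre1 (979 and 1270) and Csf1r (952 and 1220) were high as well. Nothing in the labels says that libraries of a group came from separate mice or cultures. What the p-values measure is thus only how these samples vary, and that variation may be technical.

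The summed counts of the 6 members were low in untreated macrophages and higher with IFN-γ. The 6 members together had 41, 60 and 33 counts untreated and 344, 331 and 375 after IFN-γ. This was 1.46 ± 0.532 CPM against 11.2 ± 0.809 CPM (mean ± SD, n = 3 each), and the lowest treated library lay far above the highest untreated one. With all numbered Apol genes summed into 1 feature, the log2 fold change was 2.95 ± 0.20 (SE; edgeR quasi-likelihood test, adjusted p = 1.04e-05). Apol7c (59 counts untreated and 668 with IFN-γ) and Apol9b (72 and 289) gave most of these counts, so the sums mainly describe them. In bulk RNA, more cells that express a gene and more RNA in each cell cannot be told apart.

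Of the 6 members, 3 passed the filter on low counts: Apol7c and Apol9b with counts in both groups, and Apol10b through the IFN-γ libraries alone. These 3 were called higher by edgeR (Benjamini-Hochberg adjusted p under 0.05), against 19.6% of the 12968 genes tested, while none was called lower, against 16.8%. All 3 were also at least 2-fold higher, as were 6.17% of genes tested, and had every treated library above every untreated one, as did 25.9%. As Apol10b could only enter the test by being high after treatment, the count of 3 is a description. The median log2 fold change of all genes tested was -0.01.

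With IFN-γ, Apol7c was the most abundant member and had nearly the same count in every treated library. Its counts were 16, 25 and 18 without treatment and 222, 223 and 223 after IFN-γ. The groups lay wide apart, at 0.637 ± 0.181 and 7.09 ± 0.225 CPM (mean ± SD, n = 3 each). The rise was 11.1-fold, a log2 fold change of 3.48 ± 0.16 (SE; edgeR adjusted p = 1.07e-06). A larger log2 fold change was found for 91 genes, or 0.702% of those tested. By TPM, the deposited level per length, 12.3% of tested genes stood lower than Apol7c when untreated and 41.6% with IFN-γ. It was still below the median gene, whose TPM was 10.5 with IFN-γ. The tables place Apol7c on chromosome 15, minus strand, from 77409052 to 77417540, with 5 merged exons of 2084 bases, in coordinates whose build the tables do not name and which are not those of the promoter table.

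**Figure D1:**
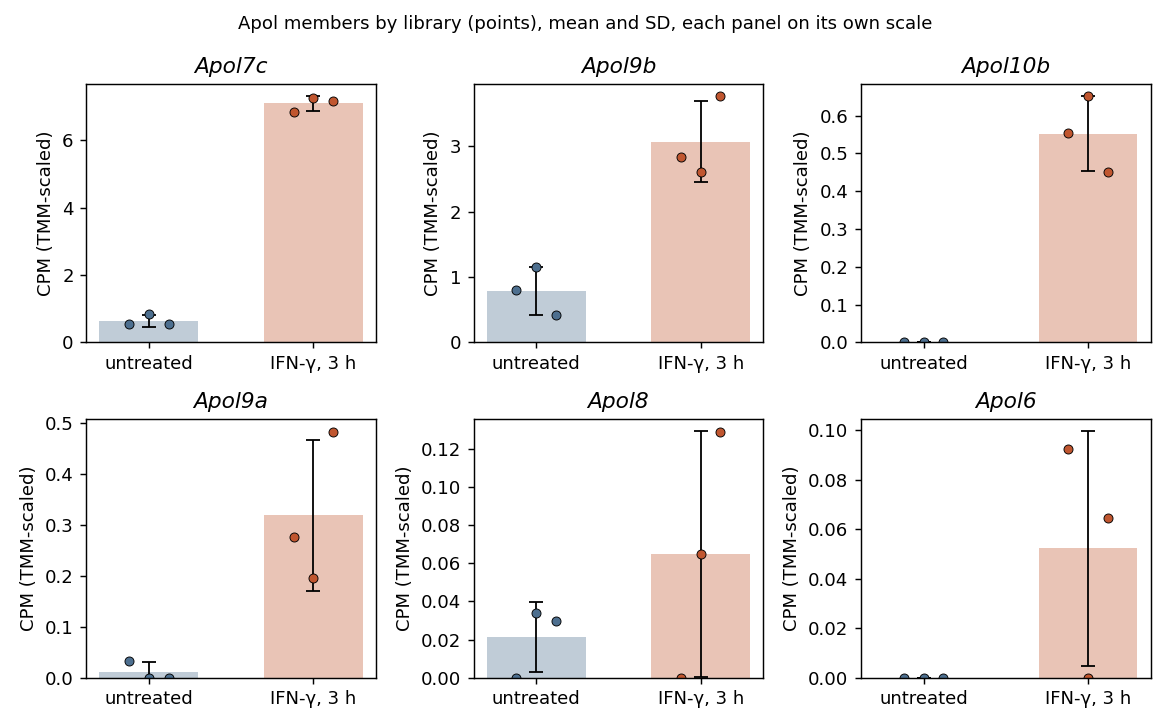
CPM of each Apol member in each library (points), with the mean (bar) and SD (line) of 3 untreated and 3 IFN-γ libraries; each panel has its own linear axis from 0. Groups are apart for Apol7c, Apol9b, Apol10b and Apol9a, and overlap at 0 for Apol8 and Apol6.

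Apol9b, the more abundant of the antiviral Apol9 pair, rose less than Apol7c. It had 24, 34 and 14 counts untreated and 92, 80 and 117 counts with IFN-γ. Untreated replicate 3 was lowest and IFN-γ replicate 3 highest, and the groups did not overlap. Levels were 0.788 ± 0.368 and 3.07 ± 0.617 CPM (mean ± SD, n = 3 each). The rise was 3.94-fold, a log2 fold change of 1.98 ± 0.30 (SE; edgeR adjusted p = 0.00134). A larger log2 fold change was found for 290 genes, or 2.24% of those tested. Apol9b lies on chromosome 15, plus strand, from 77613248 to 77620582 in the same coordinates, with 4 merged exons of 2604 bases.

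Apol9a, its close copy, had 1, 0 and 0 counts untreated and 9, 6 and 15 with IFN-γ. It was below the filter. Every treated library exceeded every untreated one, as it did for 17.4% of the 21580 genes with any count. The ratio of the summed counts, 30 against 1 and scaled to library size, was 29.7 with a 95% exact interval of 4.94 to 1210 that covers counting error only. Fitted without the filter, where 11.7% of genes were called higher, Apol9a was called with an adjusted p of 0.00163 (edgeR). The 1 untreated count lay in untreated replicate 1, so without that library the gene stood at 0 before treatment.

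The split between the Apol9 copies is uncertain. Of all 50-base stretches in the GENCODE M21 transcripts of Apol9b, 52.3% also occur in Apol9a, and 16.5% of those of Apol9a occur in Apol9b. At 150 bases the shares were 22.5% and 7.1%. How the counting treated reads that fit both genes is not given in the sources used here. Apol9a took 4%, 0% and 0% of the joint Apol9 counts when untreated, where the zeros allow up to 8.82% and 21.4%, and 8.91%, 6.98% and 11.4% with IFN-γ. Pooled, this was 1 of 73 counts (1.37%, 95% exact binomial interval 0.0347 to 7.4%) against 30 of 319 (9.4%, 6.44 to 13.2%). The exact permutation test over samples gave a two-sided p of 0.1, the smallest that 3 against 3 can give. With both copies counted as 1 feature the log2 fold change was 2.10 ± 0.31 (SE; edgeR adjusted p = 0.00107), close to that of Apol9b alone. The first 300-base promoter windows of Apol9a and Apol9b were 86.3% identical.

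Apol10b was found only in treated libraries. It had 0 counts in each untreated library and 18, 20 and 14 with IFN-γ. The treated level was 0.552 ± 0.1 CPM (SD, n = 3). Against a floor of 3 counts over the whole untreated group (0.0321 CPM), this was 17.2-fold higher. The floor bounds the untreated zeros only, and the treated counts are taken as exact. The adjusted p was 0.000677 (edgeR), for a gene that the filter kept through its treated libraries alone, and 4.16e-05 in the fit without a filter. Of its 50-base stretches, 6.11% occur in another gene, mainly Apol10a, which had 0 counts in all 6 libraries.

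Apol6 and Apol8 stayed near the limit of detection. Apol6, named after an interferon-inducible human gene, had 0 counts in all untreated libraries and 3, 0 and 2 with IFN-γ. The unfiltered fit gave an adjusted p of 0.18 (edgeR). Apol8 had 0, 1 and 1 counts untreated and 0, 2 and 4 with IFN-γ. The ratio of its summed counts was 2.97 with a 95% exact interval of 0.532 to 30.1 for counting error only, and its unfiltered adjusted p was 0.519 (edgeR). Of the exon bases of Apol6, 62 (1.76%) overlap Mb on the other strand, which had 0 counts untreated and 1 count with IFN-γ. For both members the groups overlapped at 0, and at this depth no difference was detectable.

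Per length, the treated levels formed an order in which 2 pairs of neighbours overlapped. By the deposited TPM, Apol7c stood at 6.82 ± 0.0706, Apol9b at 2.36 ± 0.435, Apol10b at 0.403 ± 0.075, Apol9a at 0.328 ± 0.146, Apol6 at 0.0301 ± 0.0277 and Apol8 at 0.0193 ± 0.0192 (mean ± SD, n = 3 each). Apol10b (0.321 to 0.468) lay inside the range of Apol9a (0.199 to 0.487), and Apol6 and Apol8 overlapped too. The other steps exceeded the spread. In untreated cells Apol7c (0.657 ± 0.132) and Apol9b (0.646 ± 0.262) were indistinguishable, and the other members were at or below 0.0388 TPM in every library.

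**Figure D2:**
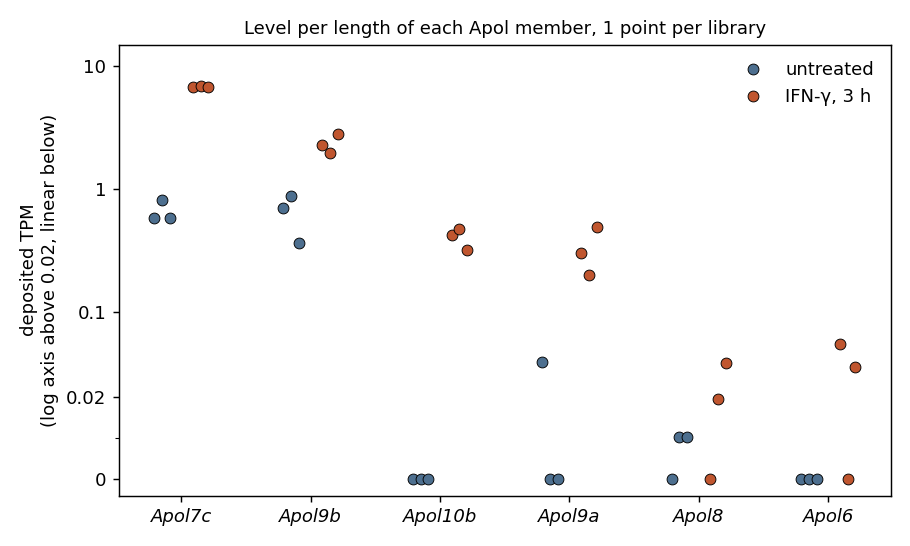
Deposited TPM (level per length) of the 6 members, 1 point per library, on an axis that is logarithmic above 0.02 and linear below. Apol7c and Apol9b start together untreated and separate with IFN-γ, to 6.82 and 2.36 TPM on average.

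In these libraries the make-up of the family differed between the groups. Apol9b gave 58.5%, 56.7% and 42.4% of the members' counts untreated and 26.7%, 24.2% and 31.2% with IFN-γ. Apol7c gave 39%, 41.7% and 54.5% untreated and 64.5%, 67.4% and 59.5% with IFN-γ. For each gene the groups did not overlap. As Apol7c and Apol9b gave most of the counts in every library, their shares nearly mirror each other. These shares do not depend on how libraries are scaled. The log2 ratio of Apol7c to Apol9b counts went from -0.22 ± 0.50 to 1.22 ± 0.28 (mean ± SD, n = 3 each; 0.5 counts added), a difference of 1.44. The exact two-sided permutation p was 0.1 for both shares and for this ratio, the smallest possible, and 0.2 for the shares after adjustment over 6 members. The ratio stayed at 0.1 after adjustment over the 3 pairs of tested members. The other 2 pairs involve Apol10b, whose untreated counts are all 0, so their ratios rest on the added offset and are not read.

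**Figure D3:**
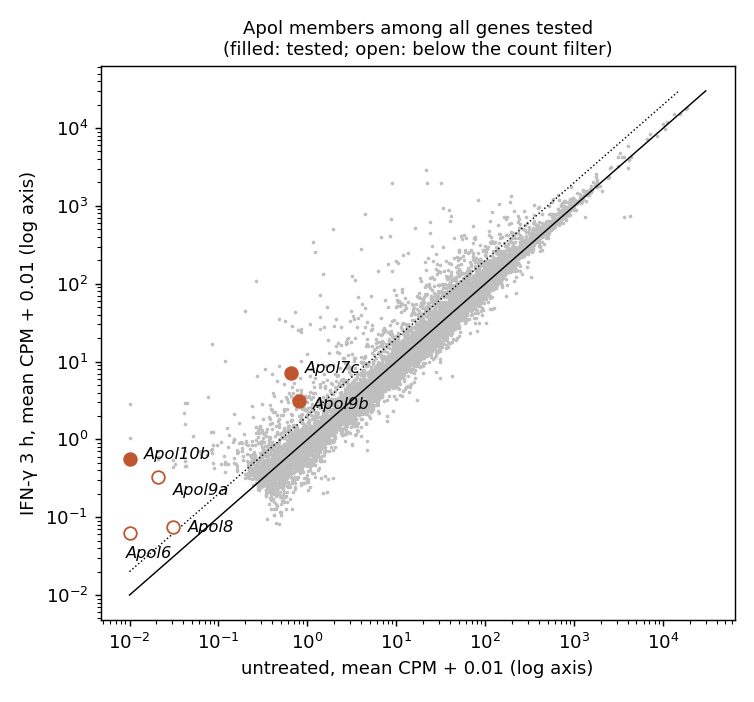
Mean CPM plus 0.01 of every gene tested, untreated (x axis) against IFN-γ (y axis), both logarithmic; the solid line marks equal levels and the dotted line 2-fold. The 6 Apol members (filled where tested, open where below the count filter) all lie above equality, at low levels. For Apol6 and Apol8 this rests on 5 and 6 summed counts with IFN-γ against 0 and 2 untreated, and neither was called.

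The other listed Apol genes had few or no counts. Apol7a, Apol7b, Apol7d, Apol10a, Apol11a and Apol11b had 0 counts in all 6 libraries. Apol7e had 2 counts, both in IFN-γ replicate 2. Up to 74.1% of the 50-base stretches of Apol7e and 72.4% of those of Apol7b occur in another gene, mainly each other, so reads from this pair could be lost if shared reads were dropped. Apol7c shared 25.6% of its stretches, mainly with the pseudogene Gm8221, and 0.302% at 150 bases. Apold1, an endothelial gene with a related domain, had 6, 6 and 4 counts untreated and 1, 6 and 1 with IFN-γ, which overlap. None of these genes passed the filter, and in the unfiltered fit neither Apol7e (adjusted p = 0.444, edgeR) nor Apold1 (0.429) was called.

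All numbered Apol genes but Apol7d lie on chromosome 15. In the coordinates of the tables the run of 12 Apol genes spans 712 kb, from Apol6 to Apol8, with Apol6 set off from the others by 331 kb. Inside it 4 genes were tested: Apol7c, Apol9b, Apol10b and Rbfox2, a splicing regulator gene in the gap after Apol6. Rbfox2 had 44, 32 and 46 counts untreated and 40, 42 and 42 with IFN-γ, with a log2 fold change of 0.01 ± 0.17 (SE; edgeR adjusted p = 0.972). Beyond Apol8, 3.48 kb away, Myh9, the gene of a non-muscle myosin, was at 420 ± 84 and 543 ± 127 CPM (SD, n = 3), and was not called (edgeR adjusted p = 0.167). It was called with the replicate number as a block (adjusted p = 0.02). On the other side, 94 kb before Apol6, 1110038F14Rik went from 532, 673 and 627 counts to 1618, 1715 and 1833, a 2.79-fold rise (edgeR adjusted p = 1.79e-05). The members with most counts are not all next to each other: Apol9a sits between Apol7a and Apol7b, both at 0, Apol7c and Apol10b are neighbours, and Apol11b (0 counts) and Apol7e (2 counts) separate them from Apol9b.

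**Figure D4:**
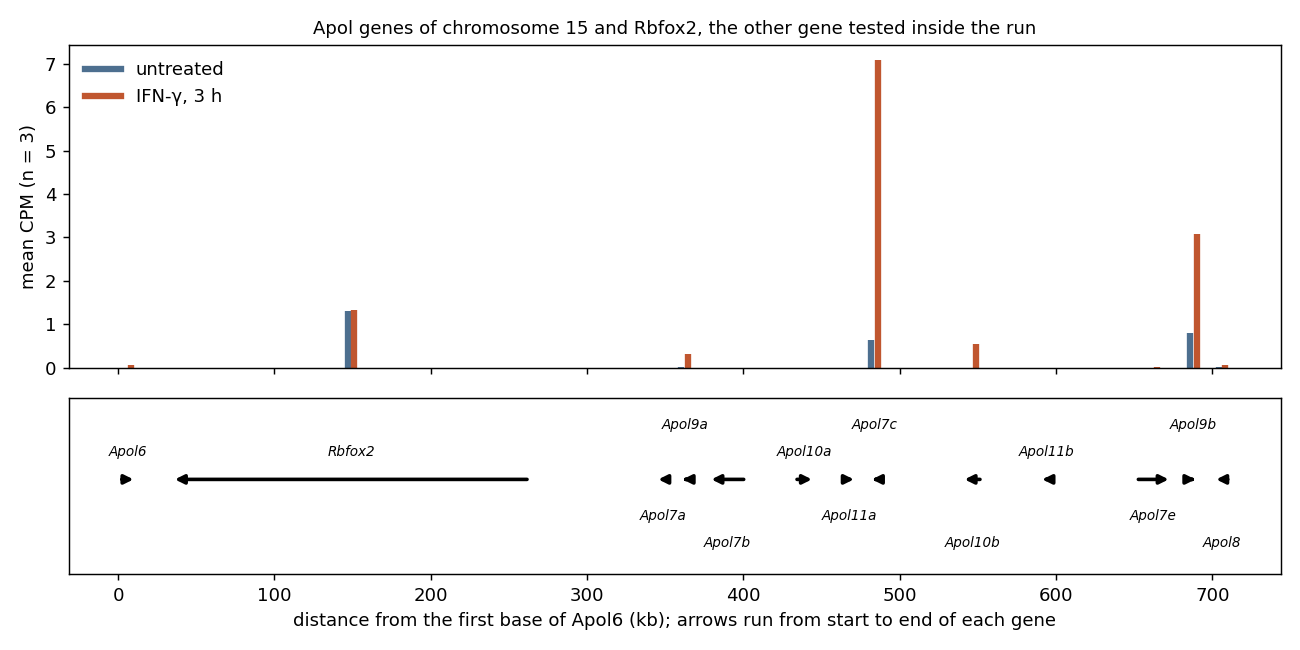
Mean CPM (n = 3, upper panel) untreated and with IFN-γ for the chromosome 15 Apol genes and Rbfox2, and their position and direction (arrows, lower panel) as distance in kb from the first base of Apol6. The tallest treated bars are Apol7c at 7.09 and Apol9b at 3.07 CPM, with Apol10b at 0.552 CPM among the genes between them.

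The interferon motif was found in promoters of members that rose and also in those of Apol genes with few or no counts. The ISRE motif was searched on both strands of 300-base windows (250 before to 50 after the start). It was present in Apol7c, Apol9a, Apol9b and Apol10b and absent from Apol8, as printed above. Apol7a and Apol7b, both with 0 summed counts, also lacked it. Apol6 had no entry. Of all 32851 promoter windows in the table, 3.44% held it, and 0.225% held more than 1 match. Apol7c held 2 matches that overlap, from -55 to -46 and from -49 to -40. So did Apol9b, from -37 to -28 and from -31 to -22, and Apol9a, from -59 to -50 and from -53 to -44. Both Apol9 genes have a second annotated start further downstream. From it the same matches lie from -86 to -77 and -80 to -71 in Apol9b, and from -105 to -96 and -99 to -90 in Apol9a. In Apol10b the match lay across the annotated start, from -4 to 6. Apol7e (2 matches) and Apol10a, Apol11a and Apol11b (1 each) held the motif too, with 2, 0, 0 and 0 summed counts after IFN-γ. The windows of Apol10a, Apol11a and Apol11b were 88.4% to 99.3% identical to each other. The gamma-activated sequence TTCNNNGAA, a short core motif of IFN-γ response, was found in 8.3% of all windows. It was in Apol10a, Apol11a and Apol11b, from -241 to -233, in Apold1, from -83 to -75, and in no window of the 5 members. A match is a description of letters in the window, not evidence of binding, and these starts are annotated, not measured in macrophages. Between the promoter and count coordinates, most chromosome 15 Apol starts differ by nearly the same distance. Those of Apol10b and Apol7e do not, so their annotated starts are not the outer ends of the genes as counted.

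**Figure D5:**
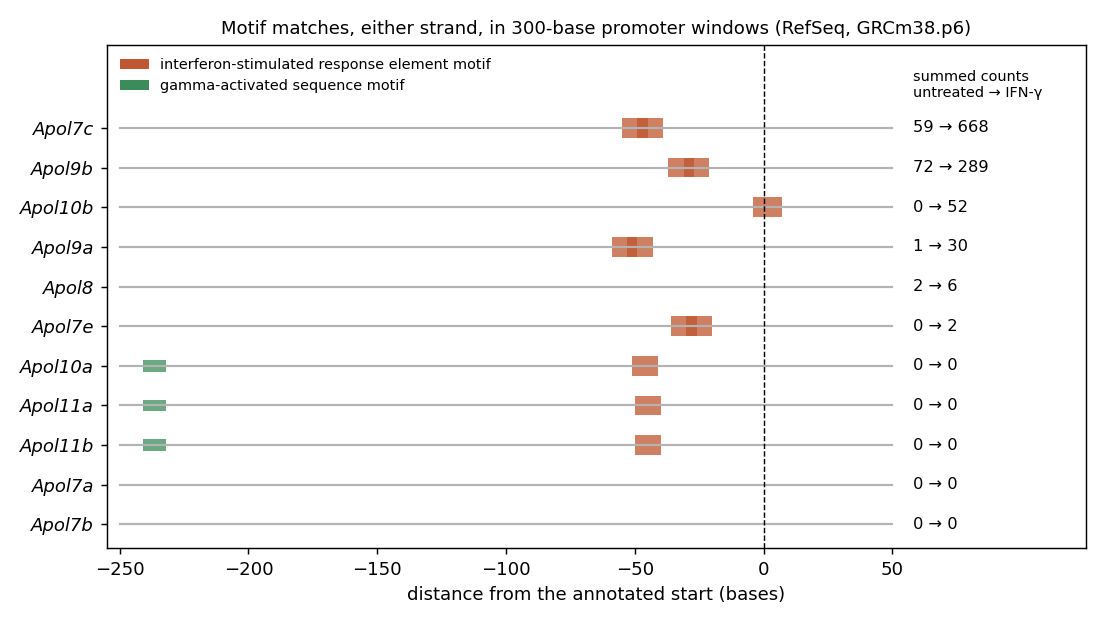
Boxes mark matches to the interferon-stimulated response element motif and the gamma-activated sequence motif in the promoter windows of 11 Apol genes. Distances are in bases from the first annotated start. Summed counts of 3 untreated and 3 IFN-γ libraries stand at the right. The members with most counts carry the first motif, and so do 4 genes with 0 to 2 counts.

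Genes of interferon signalling were mostly higher. In lists drawn up with earlier results of these data known, of 21 genes for interferons, their receptors, kinases, inhibitors and factors, 20 were tested, and 18 were called higher and 1 lower (19.6% and 16.8% of all genes tested), with a median log2 fold change of 0.88. Among the 18, an interferon gene with 1 count in each untreated library passed the filter through its IFN-γ libraries alone. The transcription factor genes Stat2 and Irf9 rose 3.52-fold and 1.36-fold (edgeR adjusted p = 1.16e-06 and 0.000214). Irf1, whose product binds the ISRE, rose 28.4-fold, and Socs1, a feedback inhibitor of the kinases, 30.7-fold (adjusted p = 1.32e-09 and 1.83e-08). Of 8 genes listed as partners or companions of APOL proteins, all tested, the 4 guanylate-binding protein genes were called higher, among them Gbp5 at 179-fold, Gbp2 at 132-fold and Gbp3 at 59.7-fold, and the other 4 were not called. Other genes of apolipoproteins and lipoprotein uptake moved little: 3 of 11 tested were higher and none lower, against 19.6% and 16.8% of all genes tested, with a median log2 fold change of 0.32. Among those called were Apool at 0.38 ± 0.08 and Apobr at 0.32 ± 0.06 (log2 fold change ± SE). Under upper quartile scaling Apool was no longer called (0.23, adjusted p = 0.055, edgeR), nor was Apobr when scaled by total counts (0.15, adjusted p = 0.0688, edgeR).

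The genes with the pattern nearest to each tested member were found by the distance between log2 CPM values over the 6 libraries, each gene centred on its own mean, among 11358 or more genes. Nearest to Apol7c were the chemokine gene Ccl5 (distance 0.32), the nucleic acid sensor gene Zbp1 (0.35) and AW112010 (0.37). Nearest to Apol9b were the tubulin-binding protein gene Tppp3 (0.32), Zfp286 (0.55) and the chemokine receptor gene Xcr1 (0.56). Nearest to Apol10b were the chemokine receptor-like gene Ccrl2 (0.33), Pstpip2 (0.38) and Cmpk2 (0.41), with the distances held down by the 2 counts added before the log. Each of these 9 genes rose by between 1.91 and 3.57 log2 units. The values describe likeness over 6 libraries that fall into 2 groups, and so mainly the size of the step.

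Some markers of dendritic cells, in which APOL7C is known, were higher in the same contrast. The 8 markers were all detected and summed to 3.17 to 3.55 CPM untreated and 7.23 to 7.64 CPM with IFN-γ. Of 7 tested, 2 were called higher, against 19.6% of all genes tested. These were Xcr1, with 18, 23 and 13 counts untreated and 104, 78 and 103 with IFN-γ, and Clec9a, at 0.283 and 0.923 CPM. Clec9a had 10, 10 and 6 counts untreated and 31, 30 and 26 with IFN-γ. Its untreated libraries alone would not have passed the filter, so its call is a description. Xcr1 alone went from 0.587 to 3.02 CPM, most of the rise of the sum. Flt3 (0.363 and 0.543 CPM), Zbtb46 (0.473 and 0.908), Itgae (0.346 and 0.362), Siglech (0.208 and 0.333), Ccr7 (1.06 and 1.23) and Cd209a (0.0732 and 0.0642) were not called or not tested. Neutrophil markers summed to 79.4 to 105 CPM and 137 to 150 CPM, with 4 of 7 tested called higher. Of the other lists, 3 of 8 tested macrophage markers, 1 of 3 of stroma and endothelium, 1 of 2 of mast cells and basophils and 1 of 1 erythroid marker were called higher. B cell markers (7.31 to 8.15 and 5.86 to 6.84 CPM) and T and NK cell markers (2 to 2.43 and 1.8 to 2.41 CPM, with Cd3e at 0) had no call. The part of these cells in the Apol counts was not tested.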

How the data were processed

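RNA was extracted with Trizol and made into stranded mRNA libraries with a KAPA kit, per the labels' protocols. HISAT2 and mm10 are named in the submitters' processing notes. The deposited gene coordinates are offset from GRCm38.p6, a release of the same assembly as mm10, so notes and coordinates differ on the build. For the counting tool, and how it treated strand and shared reads, nothing is given in the sources used here. Each deposited table gives a whole-number count, a TPM and an FPKM per gene, per the file headers. Counts deposited by the authors were tested. The deposited TPM served for levels per length and equalled values recomputed from the counts to within 7.3e-11. The FPKM deposited by the authors were not used.

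Groups came from the sample titles. Replicates of a group differed by more than sampling noise in every pair. Chi-square over degrees of freedom was 25.5 to 74.4 for untreated pairs. With IFN-γ it was 12.4 and 15.8 for the pairs with replicate 1, and only 1.97 for replicates 2 and 3. Each library was counted as 1 sample, and these values do not show that the samples are independent. Counts were filtered with filterByExpr (minimum count 10, minimum total 15), scaled by TMM and tested across all 12968 genes with edgeR 4.0.16 (R 4.3.3; glmQLFit, glmQLFTest, two-sided, threshold 0.05). The SE was obtained by dividing the log2 value by the root of the F statistic. Members below the filter were read from a fit to 21580 genes without it. Alternatives were other scalings, filters, DESeq2 1.42.0, limma-voom (limma 3.58.1), a robust fit, a test against 2-fold, a threshold of 0.01, a replicate block and each library left out. Other computations used Python 3.11.15, scipy 1.17.1 and Biopython 1.88.

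The members and lists were chosen with earlier results of these data known. The genes named are the 6 members, their listed relatives, tested neighbours of the run, up to 3 called genes with the largest change and at least 1 CPM in each context list, with Stat2, Irf1 and Irf9, and the 3 genes nearest in pattern to each tested member; markers are named outside this rule. Some genes that the rule names are not reported here.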

Additional observations from a re-analysis of the deposited data

How the results depend on the processing

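The 3 members called higher stayed at 3 under every scaling, with DESeq2, limma-voom, the robust fit, the replicate block, the threshold of 0.01, the test against 2-fold and each library left out. Apol10b entered these fits through its IFN-γ libraries alone, so the count of 3 is again a description. The count was 4 without a filter, which adds Apol9a, and 2 with at least 1 CPM in 3 libraries, which removes Apol10b. Over these settings the log2 fold change lay between 3.31 and 3.72 for Apol7c and between 1.64 and 2.35 for Apol9b, whose highest adjusted p was 0.0402, against 2-fold. Upper quartile scaling and total counts shifted the median of all genes by -0.147 and -0.17. The replicate numbers are not shown to pair the libraries: same-numbered libraries correlated at 0.306, 0.144 and -0.0703, and not every library correlated best with its own number. With the replicate block 2723 genes were higher and 2327 lower, against 2539 and 2176. Against 2-fold, other apolipoprotein genes called fell to 0 and interferon signalling genes to 8 higher and 0 lower; 2 of the latter were lower with upper quartile scaling or total counts. Rbfox2 turned to -0.13 with upper quartile scaling, -0.16 with total counts and -0.01 with at least 1 CPM in 3 libraries, and ranged from -0.10 to 0.10 with a library left out. Depth limits Apol6, Apol8 and Apol9a, whose counts are 15 or fewer per library.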

Other observations

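The promoter windows of Apol7b and Apol7e were 96.1% identical, yet the ISRE motif had 2 matches in Apol7e and none in Apol7b; both genes had 2 counts or fewer over all 6 libraries. Apol7c and Apol7e, at 73.3% identity, each held an overlapping pair of matches, with different letters in the second match and at different distances from the start, and differed from 668 to 2 in summed counts after IFN-γ. No test bears on this difference.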
